A study of Homo sapiens with 12 samples.

Results

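Carbonic anhydrases convert carbon dioxide and water into bicarbonate and a proton, and with bicarbonate and proton transporters they set the pH inside and outside a cell. The genes described here were CA2, CA9, CA12 and SLC4A7, chosen by name as a pH regulator group and found by symbol as 4 of the 25369 genes of the deposited tables. CA2 is the cytosolic enzyme, CA9 and CA12 are membrane enzymes with the active site outside the cell, and SLC4A7 (NBCn1) is a sodium bicarbonate cotransporter that carries bicarbonate into the cell. CA9 is a textbook target of the hypoxia-inducible factors (HIFs) and a common marker of hypoxic tumour cells, and extracellular carbonic anhydrases and bicarbonate uptake are known for keeping tumour cells alkaline inside and their surroundings acidic.

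Poly(A)+ RNA was sequenced from 3 established human cancer cell lines, RKO from a colon carcinoma, A549 from a lung adenocarcinoma and H460 from a large cell carcinoma of the lung. Each line was held for 24 h under normoxia or under hypoxia at 1% O2, with 2 independent biological replicates in each of the 6 groups and 12 libraries in all. Cells of all groups grew with 10% fetal bovine serum under 5% CO2, and the labels name no drug treatment or genetic change. RKO and A549 cells grew in DMEM and H460 cells in RPMI, so line and medium cannot be told apart in any comparison between H460 and the other lines. In bulk RNA, fewer cells that express a gene and less RNA per cell cannot be told apart either.

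The libraries held between 27350424 and 41757584 counted reads. Of 5 colon markers, CDX2 was present in RKO, at 377 to 619 reads, and the other 4 were at 3 reads or fewer in each RKO library, so the colon label rests here on CDX2 alone. RKO also had KRT8 and EPCAM, with CDH1 at 4 reads or fewer, and KRT18, which fell by 1.05 ± 0.15 in hypoxia, from 6870 and 6832 reads to 3641 and 3327 (edgeR adjusted p = 0.000521). In A549, KRT8, KRT18, EPCAM and CDH1 were all present. Of the 5 lung markers there, NAPSA had 133 to 179 reads and NKX2-1 had 1 to 8. The surfactant genes SFTPA1, SFTPB and SFTPC were at 4 reads or fewer. In H460, KRT8 and KRT18 were abundant, EPCAM was at 3 to 17 and CDH1 at 10 to 18 reads. Of the lung markers, NKX2-1 went from 2 and 0 reads in normoxia to 87 and 98 in hypoxia. NAPSA was at 12 to 23 reads in H460, and SFTPA1, SFTPB and SFTPC were at 1 read or fewer. The lung labels therefore rest on few of these markers. The leukocyte marker PTPRC and the endothelial marker PECAM1 were at 3 reads or fewer in all 12 libraries. The collagen gene COL1A1, a fibroblast marker that carcinoma lines can also express, had up to 75 reads in RKO, 537 in H460 and 14762 in A549 and was called higher in hypoxia in RKO and A549, by 2.15 ± 0.40 and 2.08 ± 0.48. COL3A1 had 195 to 497 reads in H460 and at most 2 in the other lines. The part of these markers in the results was not tested.

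Changes are log2 fold changes of hypoxia over normoxia with standard errors, from edgeR fits of each line on counts scaled by the trimmed mean of M values (TMM). Calls required a change of more than 1.5-fold together with an adjusted p (Benjamini-Hochberg, over all genes tested in the line) below 0.1. Levels are given as CPM, the gene's reads relative to the scaled library, and levels of different genes are set side by side only as RPKM, which divides by gene length.

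The promoters of CA9, CA12 and SLC4A7 are shown because HIFs bind the core letters ACGTG and GCGTG, and the genes differed in their response. In GRCh37, CA9 lies on chromosome 9 (35673915 to 35681154, plus strand), CA12 on chromosome 15 (63615730 to 63674075, minus strand) and SLC4A7 on chromosome 3 (27414212 to 27525911, minus strand). The windows run up to the deposited start of each gene, at chr9:35673675-35673914 on the plus strand, chr15:63674076-63674295 on the minus strand and chr3:27525912-27526125 on the minus strand. They are the parts outside the deposited genes of the 250 bases before the RefSeq start. Each stretch of 250 bases had a single match on the gene's own chromosome and strand in GRCh37, and other chromosomes were not searched. Capitals mark ACGTG or GCGTG on either strand, so that a match on the opposite strand reads CACGT or CACGC.
CA9: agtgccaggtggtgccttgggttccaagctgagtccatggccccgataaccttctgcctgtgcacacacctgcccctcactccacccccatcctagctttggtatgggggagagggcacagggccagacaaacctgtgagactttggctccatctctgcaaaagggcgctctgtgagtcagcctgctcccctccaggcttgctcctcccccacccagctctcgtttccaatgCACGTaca
CA12: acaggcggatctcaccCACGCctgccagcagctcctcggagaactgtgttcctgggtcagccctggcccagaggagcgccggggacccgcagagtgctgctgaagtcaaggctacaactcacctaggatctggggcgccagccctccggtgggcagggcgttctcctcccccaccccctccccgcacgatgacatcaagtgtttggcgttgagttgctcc
SLC4A7: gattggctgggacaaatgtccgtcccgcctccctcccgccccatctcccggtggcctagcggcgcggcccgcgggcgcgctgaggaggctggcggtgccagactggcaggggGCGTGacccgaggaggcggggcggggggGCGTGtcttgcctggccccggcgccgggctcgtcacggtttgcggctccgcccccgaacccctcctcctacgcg
The CA9 window held 1 ACGTG, on the opposite strand, starting 18 bases before the RefSeq start. The CA12 window held 1 GCGTG, on the opposite strand, starting 234 bases before the start, and the SLC4A7 window held 2 GCGTG, on the gene's strand, at 138 and 110 bases before it. Of 27305 RefSeq promoter windows of 250 bases, 18.7% held ACGTG, 31.9% held GCGTG and 43.1% held either, counted on both strands. A match in this window is a description of its letters and not a bound site.

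CA9 was the gene with the largest change among the members in every line. Its counts in RKO were 140 and 74 in normoxia and 2190 and 2739 in hypoxia. In A549 they were 241 and 103 in normoxia and 8123 and 7758 in hypoxia. In H460 they were 99 and 36 in normoxia and 6149 and 6946 in hypoxia. No hypoxic library came near a normoxic library, and the normoxic replicates differed more from each other than the hypoxic ones did. The higher normoxic replicate was 1.94 times the lower in RKO, 2.24 times in A549 and 3.26 times in H460 in RPKM, and in hypoxia the ratios were 1.46, 1.12 and 1.02. In all 3 lines replicate 1 was the higher normoxic library.

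CA9 rose by 4.45 ± 0.31 in RKO (edgeR adjusted p = 3.74e-05), a fold of 21.9. It rose by 5.65 ± 0.37 in A549 (edgeR adjusted p = 0.000876) and by 6.81 ± 0.28 in H460 (edgeR adjusted p = 3.43e-09), folds of 50.2 and 113. By size of change CA9 ranked 28 among the 12817 genes tested in RKO, 1 among the 14251 in A549 and 6 among the 14080 in H460. The size depended on the low normoxic counts. Without normoxia replicate 1 it became 5.04 in RKO, 6.36 in A549 and 7.83 in H460, and without H460 normoxia replicate 2 it became 6.10.

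**Figure D1:**
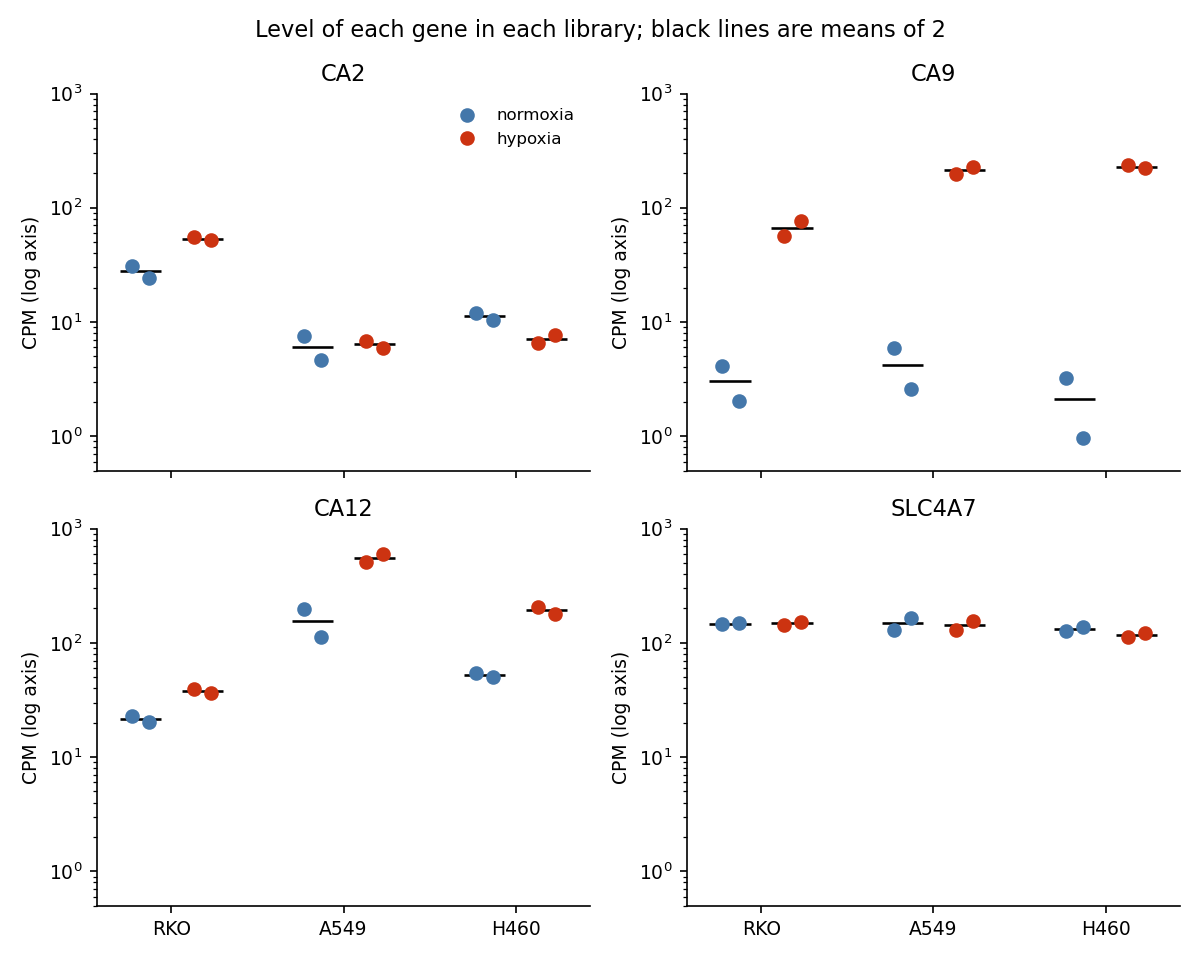
CPM on a log axis for each gene in each of the 12 libraries, with normoxia in blue, hypoxia in red and the mean of 2 replicates as a black line. CA9 and CA12 lie higher in hypoxia in all 3 lines, CA2 lies higher with hypoxia in RKO but lower with it in H460, and SLC4A7 stays between 113 and 166 CPM.

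CA12, the other membrane enzyme, was also called higher in all 3 lines, from a much higher normoxic level in the lung lines. Its counts in RKO were 781 and 743 in normoxia and 1527 and 1295 in hypoxia. In A549 they were 8082 and 4475 in normoxia and 20996 and 20403 in hypoxia. In H460 they were 1649 and 1848 in normoxia and 5357 and 5637 in hypoxia. The conditions did not overlap in any line, and the normoxic A549 libraries were the pair farthest apart, at 198 and 112 CPM.

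CA12 rose by 0.81 ± 0.17 in RKO (edgeR adjusted p = 0.00421), 1.75-fold. It rose by 1.84 ± 0.26 in A549 (edgeR adjusted p = 0.0140) and by 1.89 ± 0.10 in H460 (edgeR adjusted p = 1.46e-08), folds of 3.59 and 3.70. The RKO change was under 2-fold, and the A549 call was lost when limma was run on RPKM with no filter on low values (adjusted p = 0.247).

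CA2, the cytosolic enzyme, moved in opposite directions in RKO and H460. The gene lies on the plus strand of chromosome 8 (86376131 to 86393721, GRCh37). Its counts in RKO were 1067 and 885 in normoxia and 2159 and 1845 in hypoxia. In A549 they were 306 and 186 in normoxia and 279 and 201 in hypoxia. In H460 they were 365 and 389 in normoxia and 170 and 240 in hypoxia. The conditions were apart in RKO and in H460, and in A549 both hypoxic libraries fell between the normoxic ones.

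CA2 rose by 0.96 ± 0.18 in RKO (edgeR adjusted p = 0.00217), 1.94-fold, and fell by 0.66 ± 0.15 in H460 (edgeR adjusted p = 0.00176), to 0.633 of the normoxic level. In A549 its value was 0.07 ± 0.31 (edgeR adjusted p = 0.935), with a 95% interval from -0.54 to 0.67 that leaves room for a change of either sign. The H460 call was lost without H460 hypoxia replicate 1, where the value was -0.54. Neither call passes a minimum fold of 2.

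SLC4A7 was not called in any line. Its counts were 5013 and 5397 in normoxia and 5611 and 5408 in hypoxia in RKO. They were 5336 and 6613, then 5311 and 5249, in A549, and 3852 and 5056, then 2940 and 3843, in H460. On the CPM scale the conditions overlapped in RKO and A549. In H460 the normoxic libraries, at 126 and 137 CPM, lay above the hypoxic ones, at 113 and 122 CPM.

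The SLC4A7 values were 0.01 ± 0.15 in RKO, -0.06 ± 0.19 in A549 and -0.16 ± 0.09 in H460 (edgeR adjusted p = 0.960, 0.898 and 0.126). Their 95% intervals were -0.27 to 0.30, -0.43 to 0.31 and -0.34 to 0.02. The H460 value depended on scaling and became -0.51 with library size alone (edgeR adjusted p = 0.000536), still under the 1.5-fold minimum. That scaling moved the median of all tested genes in H460 from -0.04 to -0.39, so relative to that median SLC4A7 was at a similar place under both.

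Counted together, 3 of the 4 members were called higher in RKO, where 18.8% of 12817 tested genes were called higher. In A549, 2 of the 4 were called higher, beside 2.22% of 14251 genes. In H460, 2 of the 4 were called higher, beside 24.6% of 14080 genes, and 1 was called lower, beside 27.3%. No member was called lower in RKO or A549, where 15.1% and 0.456% of the genes were. The members, like the gene lists below, were chosen with earlier results of these data known. Their counts beside the shares are therefore descriptions. In H460 the split of all called genes moved with scaling, from 3467 higher and 3837 lower with TMM to 2075 and 5758 with library size alone.

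**Figure D2:**
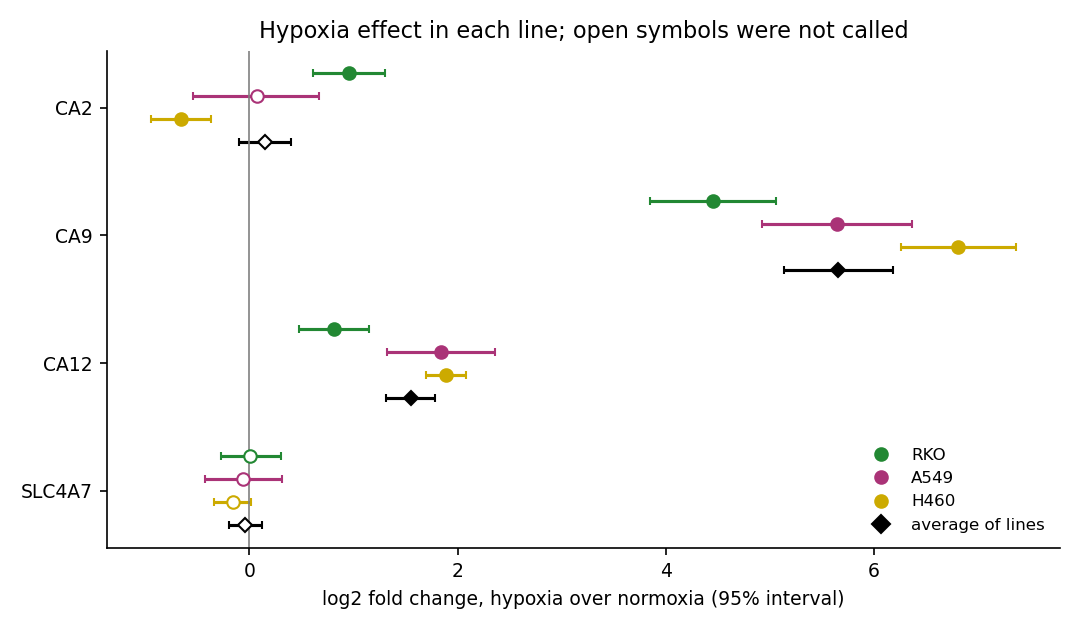
Log2 fold change of hypoxia over normoxia for each gene in RKO, A549 and H460 and as the average over lines, with 95% intervals; filled symbols were called. CA9 lies between 4.45 and 6.81, CA12 between 0.81 and 1.89, and the intervals of SLC4A7 span 0 in all lines.

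In a joint fit of all 12 libraries, the average change over lines was 5.66 ± 0.27 for CA9 (edgeR adjusted p = 6.12e-09) and 1.55 ± 0.12 for CA12 (edgeR adjusted p = 4.95e-07), and both were called higher, as were 14.8% of 15595 genes. The average was 0.15 ± 0.13 for CA2 and -0.04 ± 0.08 for SLC4A7 (edgeR adjusted p = 0.352 and 0.741). For CA2 this average covers a called rise and a called fall.

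The response of the carbonic anhydrases differed between lines when the difference itself was tested, mostly between RKO and H460. The CA2 change in RKO exceeded that in H460 by 1.66 ± 0.31 (edgeR adjusted p = 0.00134). The CA9 change was smaller in RKO than in H460, with a difference of -2.30 ± 0.60 (edgeR adjusted p = 0.0105), and so was the CA12 change, with -1.03 ± 0.29 (edgeR adjusted p = 0.0168). This interaction passed for 37.6% of all tested genes. The CA9 difference was -1.71 without RKO normoxia replicate 1, -1.65 without H460 normoxia replicate 2 and -3.37 without H460 normoxia replicate 1, and passed in each case.

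Between RKO and A549, where 14.6% of genes passed, the difference was 0.94 ± 0.31 for CA2 (edgeR adjusted p = 0.0745) and -0.99 ± 0.29 for CA12 (edgeR adjusted p = 0.0539). Both were close to the threshold. The CA2 difference failed it without RKO normoxia replicate 2, RKO hypoxia replicate 1, A549 normoxia replicate 1, either A549 hypoxia replicate, either H460 normoxia replicate or H460 hypoxia replicate 1, with values from 0.56 to 1.04. The CA12 difference failed it without RKO normoxia replicate 1, either RKO hypoxia replicate or A549 normoxia replicate 2, with values from -1.05 to -0.64.

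For CA9 the difference between RKO and A549 was -1.15 ± 0.57, with a 95% interval of -2.26 to -0.04 (edgeR adjusted p = 0.226). Between A549 and H460 no member passed, where 36% of genes did, and the CA12 difference was -0.05 ± 0.29 with an interval of -0.61 to 0.52. The CA2 difference of 0.73 ± 0.32 between A549 and H460 (edgeR adjusted p = 0.102) passed in DESeq2, with library size alone and with no filter on low values. It also passed without A549 normoxia replicate 1, at 1.11, and without A549 hypoxia replicate 2, at 0.82. The CA9 differences passed in 3 such cases, at -1.86 between RKO and A549 without A549 normoxia replicate 1, and between A549 and H460 at -1.62 without A549 normoxia replicate 2 and at -2.21 without H460 normoxia replicate 1. SLC4A7 differed by 0.12 ± 0.20, 0.22 ± 0.20 and 0.10 ± 0.20 in the 3 pairs.

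Levels over the 6 groups were ordered in CPM scaled over all 12 libraries. For CA9 every hypoxic group stood above every normoxic group, and lines also differed within hypoxia. For CA12 and CA2 the order followed line as well as oxygen. CA9 stood at 251 ± 12.7 CPM in hypoxic H460 and 210 ± 22 in hypoxic A549, which did not differ beyond their spread (edgeR adjusted p = 0.541). Hypoxic RKO followed at 63.5 ± 13.4 CPM, below hypoxic A549 by 1.73 ± 0.37 on the log2 scale (edgeR adjusted p = 0.000809). The normoxic groups stood at 4.13 ± 2.27 in A549, 2.79 ± 1.32 in RKO and 2.28 ± 1.74 in H460, with neither neighbouring pair differing beyond the spread (SD, n = 2). The normoxic order rested on single libraries. Leaving out a library gave log2 differences from -0.13 to 1.17 between A549 and RKO, which passed without RKO normoxia replicate 1 or A549 normoxia replicate 2, and also with no filter on low values. Between RKO and H460 it gave -0.35 to 1.39, which passed without H460 normoxia replicate 1. Down this order the contrasts passed for 75%, 72.7%, 73.9%, 72.6% and 74% of all 15595 genes.

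CA12 was highest in hypoxic A549, at 548 ± 64.1 CPM, followed by hypoxic H460 at 211 ± 21.3 and normoxic A549 at 151 ± 58.5. Normoxic H460 stood at 56.3 ± 3.04, hypoxic RKO at 36.1 ± 2.21 and normoxic RKO at 19.7 ± 1.48 CPM. All neighbours in this order differed, the closest pair being hypoxic H460 and normoxic A549 (edgeR adjusted p = 0.0468). The contrasts down the order passed for 75%, 76.8%, 65.5%, 75.7% and 42% of all genes. The closest pair did not differ without A549 normoxia replicate 2, without H460 hypoxia replicate 1 or with library size alone.

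CA2 was highest in hypoxic RKO, at 51.2 ± 2.86 CPM, then in normoxic RKO at 25.3 ± 4.34 and normoxic H460 at 12.2 ± 1.09. Hypoxic H460 at 7.76 ± 0.828, hypoxic A549 at 6.26 ± 0.590 and normoxic A549 at 5.93 ± 1.93 CPM did not differ from each other in that order, and the CA2 contrasts passed for 42%, 74%, 61%, 75% and 12% of all genes. The drop from normoxic to hypoxic H460 did not pass in this joint fit without H460 normoxia replicate 1 or hypoxia replicate 1. SLC4A7 ran from 145 ± 24.8 CPM in normoxic A549 down to 129 ± 6.75 in hypoxic H460, and no neighbours in its order differed (edgeR adjusted p from 0.721 to 0.947). Of all genes, 65.5%, 75.7%, 72.7%, 75.6% and 80.3% passed those contrasts.

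Per gene length, SLC4A7 and CA2 stood highest in normoxic RKO, within each other's spread, SLC4A7 in normoxic H460 and CA12 in normoxic A549. The normoxic RPKM values were 17.4 ± 0.608 for SLC4A7, 16.1 ± 2.40 for CA2, 5.27 ± 0.276 for CA12 and 1.90 ± 0.857 for CA9 in RKO. In normoxic A549 CA12 stood at 40.1 ± 15.1 RPKM and SLC4A7 at 18.6 ± 3.41, and in normoxic H460 they stood at 14.8 ± 0.586 and 18.1 ± 1.30. In hypoxia CA9 reached 44.4 ± 11.8 RPKM in RKO, 132 ± 10.3 in A549 and 130 ± 1.72 in H460, above SLC4A7 in each line.

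The summed RPKM of the 15 active and related carbonic anhydrases rose in hypoxia, and the enzymes that made up the sum changed. The sum went from 37.4 ± 2.19 to 105 ± 13.4 RPKM in RKO, from 51.9 ± 16.5 to 277 ± 23.1 in A549 and from 33.9 ± 2.28 to 187 ± 3.63 in H460, ratios of 2.79, 5.34 and 5.53. RPKM is scaled by library size alone, so these ratios are not on the TMM scale of the fold changes above. In H460 the median change of all tested genes was -0.04 with TMM and -0.39 with library size alone. CA9 and CA12 together held 19.1% ± 1.91 of the sum in normoxic RKO and 51.5% ± 4.60 in hypoxic RKO. They held 81.6% ± 5.97 and 96.6% ± 0.0504 in A549, and 48.0% ± 1.86 and 92.3% ± 0.576 in H460 (SD, n = 2). These shares are descriptions and were not tested.

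CA2 was the largest part of the sum in normoxic RKO, with 42.9% ± 3.89, and still held 31.9% ± 4.12 in hypoxia beside 42.1% ± 5.86 for CA9. In H460 the CA2 share went from 22.5% ± 0.174 to 2.02% ± 0.329, and in A549 from 7.23% ± 0.0312 to 1.35% ± 0.274. CA12 led in normoxic A549 with 76.5% ± 4.71 and in normoxic H460 with 43.6% ± 1.21. In hypoxic A549 CA9 and CA12 stood level at 47.9% ± 0.271 and 48.8% ± 0.321, and in hypoxic H460 CA9 held 69.5% ± 0.429 and CA12 22.8% ± 1.00.

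**Figure D3:**
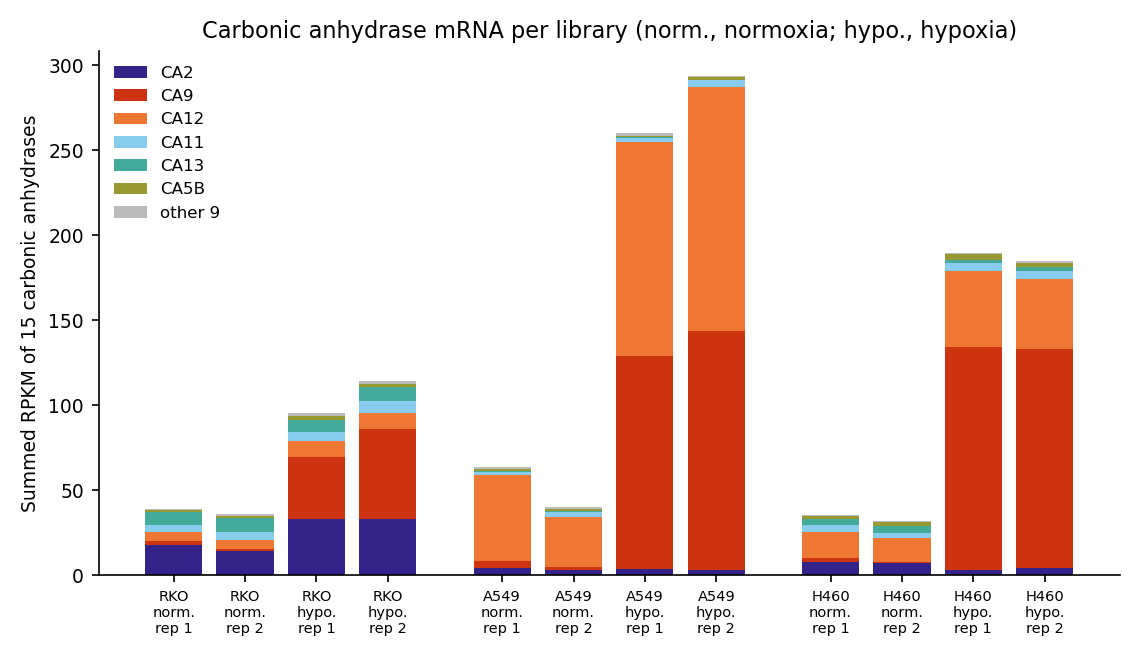
Summed RPKM of the 15 carbonic anhydrases in each of the 12 libraries, stacked by gene, with the other 9 genes of the list in grey. The bars reach 32.2 to 63.6 RPKM in normoxia and 95.1 to 293 RPKM in hypoxia, and CA9 and CA12 fill most of the hypoxic bars of A549 and H460.

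Of the remaining 12 carbonic anhydrases, 4 were tested in each line. The RKO fit called 2 higher and 0 lower, the A549 fit called 0, and the H460 fit called 3 higher and 1 lower. Among all genes tested, the share called higher was 18.8% for RKO, 2.22% for A549 and 24.6% for H460. The share called lower was 15.1%, 0.456% and 27.3%, respectively. Whether the counts of these 4 genes depart from the shares was not tested. The mitochondrial enzyme CA5B rose by 0.98 ± 0.25 in RKO and 1.02 ± 0.16 in H460, and its value in A549 was 0.18 ± 0.28. CA5B has a close copy, CA5BP1, in the same table, so reads that match both make its counts uncertain. CA11, which lacks catalytic activity, rose by 0.93 ± 0.18 in H460, a call lost with library size alone, where it was 0.58. CA8, another acatalytic member, rose by 0.95 ± 0.29 in H460 from 24 and 38 reads to 43 and 59.

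CA13, a cytosolic enzyme, fell by 0.75 ± 0.14 in H460 and had values of -0.20 ± 0.17 in RKO and 0.22 ± 0.34 in A549. CA3, the muscle cytosolic enzyme, rose by 1.13 ± 0.39 in RKO from 25 and 49 reads to 86 and 83. CA7 had at most 9 reads in a library, CA1 and CA14 had 0 in all 12 libraries, and CA4, CA5A, CA6 and CA10 had at most 2. For genes with 0 reads in a library, an expected count of up to 3 reads there remains possible.

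The wider set of pH regulators held 77 genes besides the members, in 6 lists that include the carbonic anhydrases. Of 48 tested in RKO, 12 were higher and 4 lower. Of 54 tested in A549, 1 was higher and 0 were lower, and of 56 tested in H460, 15 were higher and 11 lower. The all-gene shares for RKO were 18.8% up and 15.1% down. For A549 these shares were 2.22% and 0.456%, and for H460 24.6% and 27.3%. The median change of the set was 0.17, 0.00 and -0.02 in these lines, beside 0.01, -0.01 and -0.04 over all tested genes. With library size alone the H460 counts were 7 higher and 24 lower. In A549, 10 of the 54 had an unadjusted p under 0.05 in edgeR, and DESeq2 called 1 higher and 0 lower, but the joint edgeR fit called 5 and 2. By list, those 10 were 0 carbonic anhydrases, 3 bicarbonate transporters, 3 sodium-proton exchangers, 1 monocarboxylate transporter, 2 proton pump genes and 1 acid sensor or proton channel.

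Among 13 bicarbonate transporters other than SLC4A7, the RKO fit called 5 higher and 2 lower of 8 tested, the A549 fit called 0 of 9, and the H460 fit called 4 higher and 1 lower of 7. Set beside these, all-gene calls came to 18.8% up and 15.1% down (RKO), 2.22% and 0.456% (A549), 24.6% and 27.3% (H460). The anion exchanger SLC26A6 rose by 1.21 ± 0.19 in RKO and 0.59 ± 0.10 in H460, where the call was lost with library size alone, at 0.24. The chloride bicarbonate exchanger SLC4A3 rose by 0.73 ± 0.19 in RKO and 1.26 ± 0.13 in H460. Its relative SLC4A2 fell by 0.59 ± 0.20 in RKO, a call lost with library size alone, and by 0.89 ± 0.10 in H460. The sodium-driven exchanger SLC4A8 fell by 0.77 ± 0.17 in RKO and rose by 1.46 ± 0.27 in H460, there from below 1 CPM. SLC4A9, chosen after its values were seen, went from 4 and 9 reads to 154 and 108 in RKO, a rise of 4.23 ± 0.46.

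The proton-linked monocarboxylate transporters export lactate with a proton. SLC16A3 (MCT4), the lactate exporter of glycolytic cells, was the single gene of the pH regulator lists outside the members that was called in all 3 lines, with rises of 0.68 ± 0.17 in RKO, 1.28 ± 0.21 in A549 and 1.29 ± 0.10 in H460 (edgeR adjusted p = 0.00945, 0.0237 and 3.28e-07). Its level went from 179 ± 7.38 to 286 ± 50.6 CPM in RKO, from 118 and 82.8 to 229 and 258 in the A549 libraries and from 354 ± 32.2 to 868 ± 5.26 in H460. Taken singly, the lines called 18.8%, 2.22% and 24.6% of all tested genes higher. How many of all genes were called in all 3 lines was not counted. SLC16A1 (MCT1) fell by 0.61 ± 0.18 in RKO, a call lost with library size alone. BSG, the chaperone of these transporters, rose by 0.93 ± 0.12 in H460, where the call was lost with library size alone, at 0.58. EMB, a second chaperone, fell by 1.31 ± 0.13 in H460.

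Of the 14 sodium-proton exchangers and their partner proteins, the RKO fit called 2 higher and 1 lower of 10 tested, the A549 fit 0 of 11, and the H460 fit 2 higher and 1 lower of 12. Over every tested gene, RKO had 18.8% up and 15.1% down, A549 had 2.22% and 0.456%, and H460 had 24.6% and 27.3%. SLC9A7 and SLC9A5 rose in RKO, by 0.86 ± 0.16 and 0.72 ± 0.18. In H460 the Golgi exchanger SLC9A8 fell by 1.22 ± 0.12, and the calcium-binding partners TESC and CHP1 rose by 1.44 ± 0.09 and 0.66 ± 0.09. The CHP1 call was lost with library size alone, at 0.31.

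Of the 25 genes of the vacuolar proton pump, which acidifies lysosomes and other compartments, the RKO fit called 1 higher and 0 lower of 19 tested, the A549 fit 0 of 22, and the H460 fit 4 higher and 5 lower of 23. For these counts and those of the acid sensors, the all-gene shares in RKO were 18.8% higher and 15.1% lower. They were 2.22% and 0.456% in A549, and 24.6% and 27.3% in H460. TCIRG1, the a3 subunit, rose by 0.77 ± 0.19 in RKO and 1.20 ± 0.10 in H460. The a2 subunit ATP6V0A2 fell by 2.69 ± 0.11 in H460 and ATP6V0E2 by 1.78 ± 0.12. Among 7 acid sensors and proton channels, the acid-sensing channel ASIC3 rose by 2.01 ± 0.34 in RKO, and the proton-sensing receptor GPR65 and the proton channel HVCN1 fell in H460, by 1.46 ± 0.11 and 1.98 ± 0.19. That list had 2, 3 and 5 tested genes in the lines, of which 1 was higher in RKO, 0 were called in A549 and 2 were lower in H460.

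**Figure D4:**
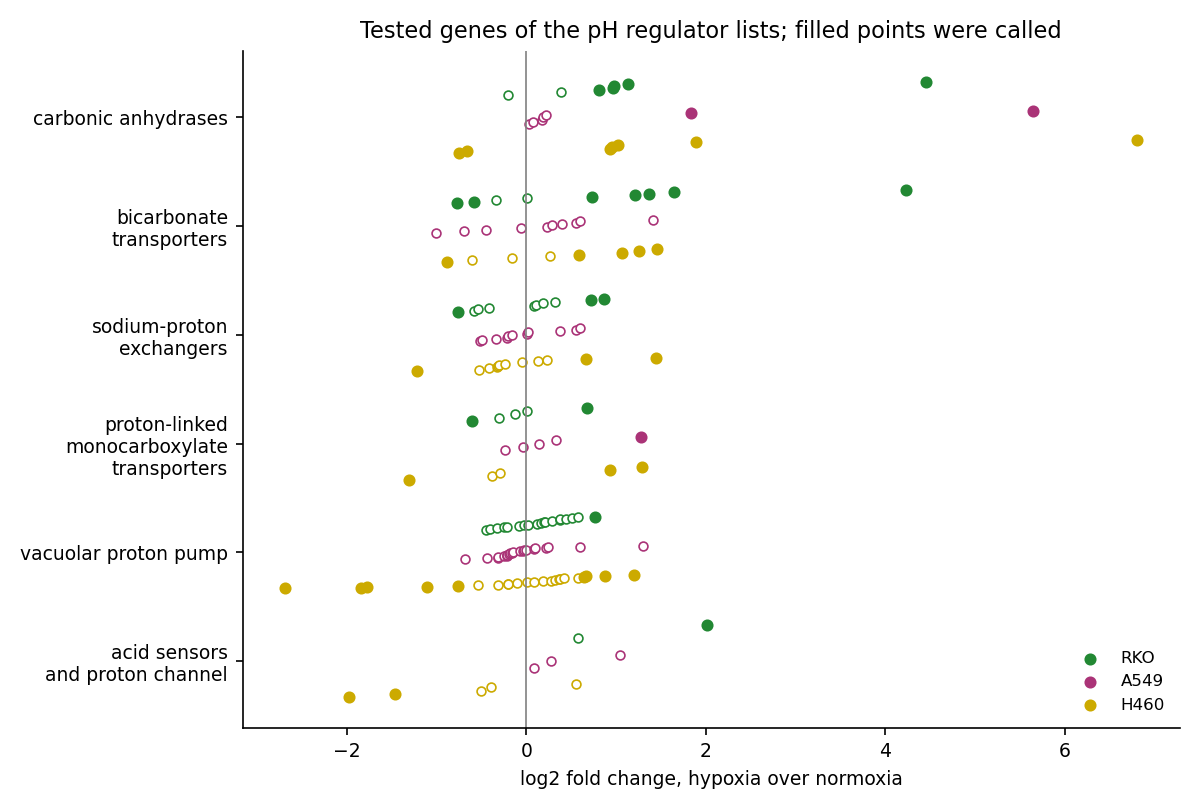
Log2 fold change of hypoxia over normoxia for each tested gene of the 6 pH regulator lists, by line; filled points were called. CA9 lies at the far right of the carbonic anhydrases in all 3 lines, and most points of the other lists lie between -1 and 1.

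The neighbourhoods of the members were read from the deposited coordinates, taking genes within 200 kb. Of 25 genes near CA9, 17 were tested in RKO (10 higher, 0 lower), 17 in A549 (0 called) and 15 in H460 (6 higher, 3 lower). For RKO the all-gene shares were 18.8% up and 15.1% down, for A549 they were 2.22% and 0.456%, for H460 they were 24.6% and 27.3%. DESeq2 called 8 of these neighbours higher in RKO, and 6 higher and 2 lower in H460. The nearest, the tropomyosin gene TPM2, lies 836 bases away on the opposite strand and rose by 0.79 ± 0.19 in RKO. Its values were 0.25 ± 0.19 in A549 and 0.51 ± 0.08 in H460, under the minimum fold. CCDC107, 12415 bases away on the same strand, rose by 0.59 ± 0.18 in RKO and 2.02 ± 0.10 in H460. TESK1 rose by 0.61 ± 0.17 and 1.20 ± 0.10 and TMEM8B by 1.19 ± 0.25 and 1.35 ± 0.13 in those lines.

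Further CA9 neighbours were called as follows. CD72 rose by 2.68 ± 0.52, RUSC2 by 0.68 ± 0.16, MSMP by 1.48 ± 0.49 and FAM166B by 1.15 ± 0.43 in RKO. Of these, CD72 went from 9 and 7 reads to 77 and 34, and MSMP from 17 and 12 to 60 and 27. FAM166B reads went from 19 and 14 to 44 and 34. In H460 RGP1 rose by 1.35 ± 0.10 and TLN1 by 0.61 ± 0.09, the latter a call lost with library size alone, and HINT2 fell by 1.24 ± 0.13. NPR2 rose by 0.63 ± 0.26 in RKO and fell by 0.65 ± 0.13 in H460. LINC00950 rose in both of these lines, by 2.32 ± 0.50 and 1.01 ± 0.32. Its reads went from 6 and 6 to 36 and 28 in RKO and from 23 and 38 to 37 and 68 in H460. RMRP fell by 0.92 ± 0.37 in H460, but its counts ran from 97 to 3694 between the normoxic A549 libraries, so its values are of little weight. None of these changes reached that of CA9 in the same line.

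Of 6 genes near CA12, 5 were tested in each line, with 3 called higher in RKO, 0 in A549 and 3 in H460, and 0 called lower, beside 18.8%, 2.22% and 24.6% of all tested genes called higher. APH1B, 14405 bases away, rose by 0.85 ± 0.17 in RKO, close to the 0.81 of CA12 there. RPS27L rose by 0.70 ± 0.15 and LACTB by 0.75 ± 0.18 in RKO. In H460 RAB8B rose by 1.83 ± 0.11, LACTB by 1.73 ± 0.11 and USP3 by 0.80 ± 0.10, of which the USP3 call was lost with library size alone. In A549 an unadjusted p under 0.05 in edgeR was reached by 3 neighbours of CA9 and 1 of CA12, and DESeq2 called 0 of either. Near CA2 lie CA3, CA1 and CA13, described above, and REXO1L2P, which was not tested in any line. In H460 CA13 was the only neighbour tested and fell, as did CA2, beside 27.3% of all tested genes called lower. In RKO, where CA2 rose, CA3 rose too and CA13 was not called, at -0.20 ± 0.17. The single neighbour of SLC4A7, NEK10, was not called.

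**Figure D5:**
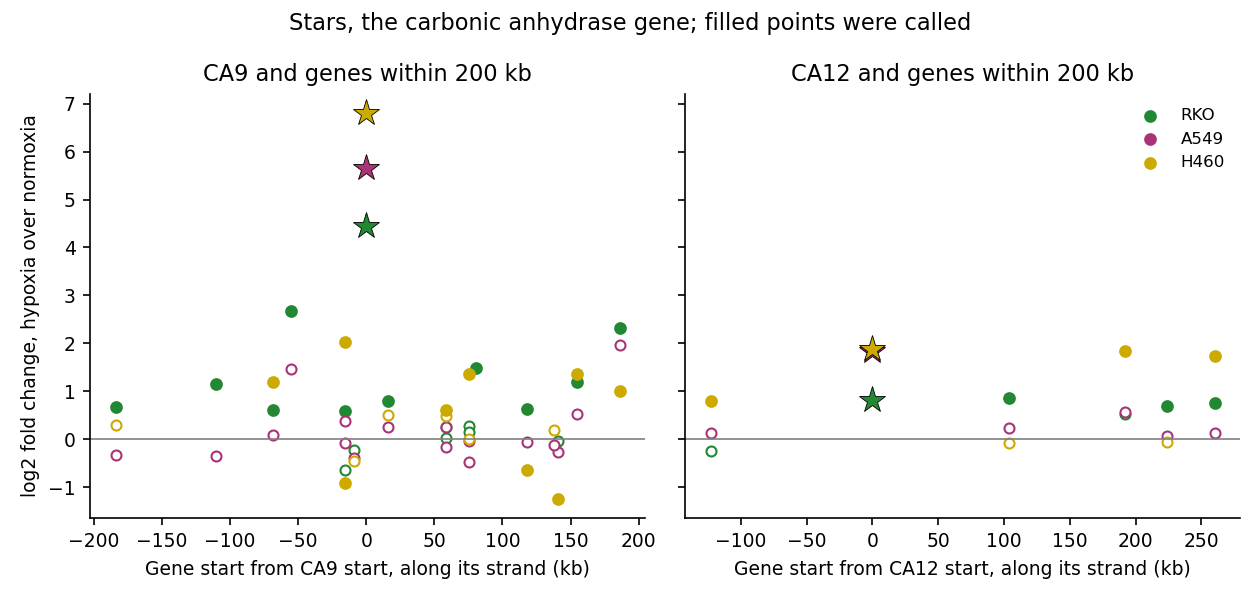
Log2 fold change of CA9, CA12 and the tested genes within 200 kb, against the distance in kb from the start of the gene along its strand; filled points were called and stars mark CA9 and CA12. The CA9 stars lie above all neighbours of the same line, and in H460 the CA12 star at 1.89 lies beside RAB8B at 1.83.

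The genes with the most similar pattern to each member were ranked by Pearson correlation of log2(CPM + 1) over the 12 libraries, among 12424 genes with a mean of at least 100 counts. All genes share these libraries, whose 3 lines and 2 conditions set most of the pattern, so the values are descriptions. Nearest to CA9 were SMS (r = 0.961), PAM (r = 0.960), ITGA5 (r = 0.952), MOB3A (r = 0.946) and PGK1 (r = 0.946). PGK1, a glycolytic enzyme, was called higher in all 3 lines, with changes of 1.85, 1.86 and 2.55 for RKO, A549 and H460. PAM and ITGA5 were also called higher in all 3 lines. SMS and MOB3A were called higher in A549 and H460 but not in RKO, at 0.50 and 0.24. Nearest to CA12 were KRT15 (r = 0.978), PFKP (r = 0.972), CP (r = 0.970), CFD (r = 0.967) and PRKCA (r = 0.963). KRT15, CP and PRKCA were called higher in all 3 lines. PFKP and CFD did not share the rise of CA12 in RKO, with uncalled values of -0.09 and -0.12.

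Nearest to CA2 were E2F7 (r = 0.989), ZHX3 (r = 0.977), SYDE2 (r = 0.975), TMEM68 (r = 0.975) and FAM131A (r = 0.974). The RKO and H460 changes were 0.99 and -0.59 for E2F7, which represses cell cycle genes, and 0.96 and -0.74 for SYDE2, all of them called. ZHX3, TMEM68 and FAM131A did not share the fall, with uncalled H460 values of -0.28, -0.08 and -0.0. In RKO they were at 0.66, 0.54 and 1.05, of which the TMEM68 value was not called. For SLC4A7, whose level hardly varied, the highest values were lower, from 0.733 for TBRG1 and 0.737 for TSTD2 to 0.740 for SSH1, 0.747 for SLX4IP and 0.772 for PCMTD2. Between members, r was 0.634 for CA9 and CA12, -0.787 for CA2 and CA12, and -0.120 for CA2 and CA9.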

How the data were processed

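The 12 libraries held poly(A)+ RNA of 3 cell lines under normoxia or hypoxia, 2 per group. Per the labels and the study's methods, the authors aligned strand-specific single-end reads to GRCh37 with TopHat2 2.0.13, counted exon reads with HTSeq 0.6.1 and deposited raw counts per gene. The deposited RPKM values equalled the count divided by the gene length and the summed counts of the library. Library totals ran from 27350424 to 41757584 reads. The median standard error over genes was 0.184, 0.223 and 0.114 (log2) in RKO, A549 and H460.

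Each line was fitted on its own by the quasi-likelihood F test of edgeR 4.0.16 after TMM scaling (R 4.3.3), over genes above 0.5 CPM in at least 2 libraries. A joint fit of all 12 libraries gave averages, differences between lines and levels. The scripts were tested on simulated data. Alternatives were RLE factors, library size alone, other filters and thresholds, a joint fit, a replicate block, DESeq2 1.42.0, log2 RPKM (pseudocount 0.1 or 1) in limma 3.58.1, and leaving out each library. The study tested genes with DESeq2.

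The members and gene lists were chosen with earlier results of these data known. The text names the 4 members, the other carbonic anhydrases, in each other list the called genes with the 3 largest changes per line and those called in all lines (mean of at least 100 counts for the former), called neighbours within 200 kb, the 5 most similar genes and the marker genes. The promoter windows came from the RefSeq table, which held 3 members. Sequences were matched to GRCh37, and proteins were not used here.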

Additional observations from a re-analysis of the deposited data

Results flagged for a closer look

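Some differences of the hypoxia effect between lines passed the interaction test (edgeR joint fit of 12 libraries, adjusted p under 0.1). They are listed on the log2 scale, the first line minus the second. The list covers the members, the other carbonic anhydrases and the pH regulators named by the rule of largest changes or calls in all lines. Other genes of the pH regulator lists passed too and are left out. One is SLC4A9, at 2.86 for RKO minus A549 and -2.55 for A549 minus H460. In each group of line and oxygen there were 2 libraries, too few to look for single samples that stand apart.

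For CA2 the difference was 0.94 for RKO minus A549 and 1.66 for RKO minus H460. In RKO both hypoxic libraries lay above both normoxic ones, in H460 both lay below, and in A549 they lay between. For CA9 the difference was -2.30 for RKO minus H460, where all hypoxic libraries of both lines lay above all normoxic ones. For CA12 it was -0.99 for RKO minus A549 and -1.03 for RKO minus H460, again with all hypoxic libraries above the normoxic ones. H460 and RKO differed in medium as well as in line, which cannot be told apart.

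Among the other carbonic anhydrases, the difference for CA13 was 0.59 for RKO minus H460 and 0.97 for A549 minus H460, and for CA5B it was -0.84 for A549 minus H460. Among the bicarbonate transporters, SLC4A8 differed by -1.27 for RKO minus A549, -2.19 for RKO minus H460 and -0.92 for A549 minus H460. SLC26A6 differed by 0.97 for RKO minus A549 and 0.67 for RKO minus H460. For the monocarboxylate transporters and their chaperones, the values were -0.57 for SLC16A3, -1.19 for BSG and 1.22 for EMB for RKO minus H460, and -0.79 for BSG and 1.63 for EMB for A549 minus H460.

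For the sodium-proton exchangers and their partners, RKO minus H460 gave 1.08 for SLC9A5, 0.68 for SLC9A7, 1.38 for SLC9A8, -0.54 for CHP1 and -1.98 for TESC. A549 minus H460 gave 0.72 for SLC9A8, -0.64 for CHP1 and -1.67 for TESC. For the proton pump, ATP6V0A2 differed by 2.28 for RKO minus H460 and 2.00 for A549 minus H460, ATP6V0E2 by 1.34 and TCIRG1 by -0.97 for A549 minus H460. ASIC3 differed by 1.78 for RKO minus A549 and 2.44 for RKO minus H460, and HVCN1 by 3.02 for A549 minus H460. The interaction passed for 14.6%, 37.6% and 36% of all tested genes in the order RKO minus A549, RKO minus H460, A549 minus H460.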

How the results depend on the processing

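No member changed direction where it had been called. A minimum fold of 2 removed the calls of CA2 in RKO (0.96) and H460 (-0.66) and of CA12 in RKO (0.81), and limma on log2(RPKM + 0.1) with no filter removed that of CA12 in A549 (1.80). Some differences between lines passed only under an alternative: CA2, A549 minus H460, at 0.99 with library size alone, 0.73 with no filter, 0.73 with DESeq2 and 0.75 with the replicate block, CA9 at -1.14 (RKO minus A549) and -1.15 (A549 minus H460) with no filter, and SLC4A7, RKO minus H460, at 0.61 with library size alone. Leaving out a library, which leaves a lone sample that is assumed to vary like the others, gave -0.79 to -0.54 for CA2 in H460. For the differences between lines it gave 0.56 to 1.24 (CA2, RKO minus A549), 0.43 to 1.11 (CA2, A549 minus H460), -1.86 to -0.57 (CA9, RKO minus A549), -2.21 to -0.44 (CA9, A549 minus H460) and -1.45 to -0.64 (CA12, RKO minus A549).

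Counts of pH regulators other than the members moved more. Those higher in RKO, 12, became 6 with a minimum fold of 2 and ranged from 7 to 13 without a library. Those lower in RKO, 4, became 1 with library size alone, the 5 CPM filter, the joint fit and limma on log2(RPKM + 0.1), 0 with a minimum fold of 2 and with the other 2 limma fits, and 8 with no minimum fold, and ranged from 0 to 4 without a library. In A549, 1 higher became 5 in the joint fit, 6 with the replicate block and 0 with limma without a filter, and 0 lower became 2 in the joint fit and with the block. Without a library these ranged from 1 to 3 and from 0 to 1, both upper values without A549 hypoxia replicate 1. In H460, 15 higher became 7 with library size alone, with a minimum fold of 2 and with limma on log2(RPKM + 0.1), 4 with log2(RPKM + 1) and 8 without a filter. The 11 lower became 24, 22, 18 and 24 under library size alone and these 3 limma fits, and 25 with no minimum fold. The cause was not tested.

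The labels do not say that a replicate number marks a shared day. Same-numbered libraries deviated together from their group means with r of 0.378, 0.399 and 0.183 in RKO, A549 and H460, with 2 pairs a line. These values leave a shared structure possible. The numbers were not taken as pairs because no label says so, and the block is given as an alternative. Over all genes the replicate block moved the A549 calls from 316 higher and 65 lower to 1189 and 723, and for the members it changed no other call. The shares of the carbonic anhydrases cannot change with library scaling. With a pseudocount of 0.1, 2, 3, 3 and 5 of the 5 most similar genes were shared for CA2, CA9, CA12 and SLC4A7.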
